A study of Mus musculus with 81 samples.

Results

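The genes described here encode the subunits of cAMP-dependent protein kinase (PKA), together with Gnas, the gene of the stimulatory G protein alpha subunit. They were chosen by name, with earlier results of these data known, and number 7 of the 57010 gene identifiers in the count table. Prkaca and Prkacb are the 2 catalytic subunit genes, and Prkar1a, Prkar1b, Prkar2a and Prkar2b are the 4 regulatory subunit genes. All 7 passed the filter on low counts in every comparison, so no member is missing from any of the tests.

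The libraries came from male mice aged 6 months (6 MO), of the Ts65Dn line (Ts) or their disomic littermates (2N). Ts mice carry an extra small chromosome made of parts of mouse chromosomes 16 and 17, so that genes on these parts are present in an additional copy in every cell from conception. Breeding was between trisomic mothers and C57Bl/6J Eicher by C3H/HeSnJ F1 fathers, so the mice were of mixed background. The dams ate a diet with 1.1 g/kg choline chloride (ChN) or a supplemented one with 5.0 g/kg (ChP), the pups stayed on the diet of their dam until weaning, and all offspring then ate the control diet. CA1 and CA3 pyramidal neurons (PNs) and dentate gyrus granule cells (DGCs, written DG for libraries) were cut by laser capture microdissection from Nissl-stained sections, and each library holds RNA pooled from many neurons of 1 mouse, so that fewer cells of a type and less RNA per cell cannot be told apart. In all there were 81 libraries of 28 mice. The numbers of 2N and Ts libraries were 6 and 5 for CA1 ChN, 7 and 9 for CA1 ChP, 6 and 6 for CA3 ChN, 7 and 7 for CA3 ChP, 6 and 6 for DG ChN, and 7 and 9 for DG ChP.

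PKA is the main effector of cyclic AMP in neurons. A receptor coupled to the stimulatory G protein releases the alpha subunit encoded by Gnas, which turns on adenylyl cyclase, and the cyclic AMP made there binds the regulatory subunits and frees the catalytic subunits to phosphorylate channels, receptors and the transcription factor CREB. Type I regulatory subunits (Prkar1a, Prkar1b) are largely soluble, whereas type II subunits (Prkar2a, Prkar2b) are mostly held near their substrates by A-kinase anchoring proteins. In the hippocampus the kinase is known for its part in lasting synaptic potentiation, including presynaptic potentiation at the mossy fibre terminals that DGCs form on CA3 PNs.

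None of the 7 genes lies on the triplicated parts of chromosomes 16 and 17. In build GRCm39, Prkaca is at chr8:84699575-84723091 on the forward strand, Prkacb at chr3:146435311-146518793 on the reverse strand, Prkar1a at chr11:109513434-109560633 on the forward strand and Prkar1b at chr5:139002025-139136646 on the reverse strand. Prkar2a is at chr9:108566513-108627641 on the forward strand, Prkar2b at chr12:32008448-32111363 on the reverse strand and Gnas at chr2:174126022-174188537 on the forward strand. The Gnas count sums all transcripts of an imprinted locus with several first exons, among them the long form and the neuroendocrine secretory protein, and therefore is not a measure of the G protein alpha subunit alone. Counts assigned to the near-identical pseudogene Prkaca-ps1 and to the antisense Gnasas1 were scarce, with at most 1 and 2 in any library. Some other genes that overlap members had more. Prkar1b overlaps Gm15672 on its own strand (at most 15 counts) and Dnaaf5 on the opposite strand (at most 23). Prkar1a overlaps Fam20a on the opposite strand (at most 14).

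The 4 promoters shown belong to genes that the results turn on: Prkacb and Prkar2b, which were highest in DGCs, Prkar1b, which was lowest there, and Prkar1a, which holds the only cyclic AMP response element found among the members. Each runs from 250 bases before to 50 bases after a RefSeq transcript start, in build GRCm38.p6, a build other than that of the counts. Where a gene had several starts, the one shown is that whose last 30 bases were found in the largest number of the annotated transcripts of the gene. Capitals mark the palindromic response element TGACGTCA, to which CREB binds, and its 5-letter core TGACG, which reads CGTCA on the other strand and also lies inside the full element.
Prkacb, chr3:146812897-146813196, reverse strand: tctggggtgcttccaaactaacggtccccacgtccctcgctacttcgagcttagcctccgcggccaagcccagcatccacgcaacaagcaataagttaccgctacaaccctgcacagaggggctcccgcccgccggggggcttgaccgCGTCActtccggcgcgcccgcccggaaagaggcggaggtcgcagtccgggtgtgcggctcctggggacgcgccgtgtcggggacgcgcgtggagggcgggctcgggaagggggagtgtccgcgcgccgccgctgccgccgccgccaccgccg
Prkar2b, chr12:32061228-32061527, reverse strand: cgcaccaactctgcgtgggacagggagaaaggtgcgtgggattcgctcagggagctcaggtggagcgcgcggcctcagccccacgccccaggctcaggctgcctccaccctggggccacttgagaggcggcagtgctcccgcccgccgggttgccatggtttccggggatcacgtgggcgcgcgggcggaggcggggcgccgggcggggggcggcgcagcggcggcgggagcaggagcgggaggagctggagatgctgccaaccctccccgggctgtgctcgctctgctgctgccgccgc
Prkar1b, chr5:139129703-139130002, reverse strand: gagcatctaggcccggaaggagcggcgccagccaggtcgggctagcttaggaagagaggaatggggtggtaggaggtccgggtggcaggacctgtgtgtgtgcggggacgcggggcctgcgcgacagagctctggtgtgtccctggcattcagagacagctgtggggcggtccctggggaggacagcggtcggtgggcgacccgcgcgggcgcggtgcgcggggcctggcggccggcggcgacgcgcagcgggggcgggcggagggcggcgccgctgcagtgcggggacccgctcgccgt
Prkar1a, chr11:109650699-109650998, forward strand: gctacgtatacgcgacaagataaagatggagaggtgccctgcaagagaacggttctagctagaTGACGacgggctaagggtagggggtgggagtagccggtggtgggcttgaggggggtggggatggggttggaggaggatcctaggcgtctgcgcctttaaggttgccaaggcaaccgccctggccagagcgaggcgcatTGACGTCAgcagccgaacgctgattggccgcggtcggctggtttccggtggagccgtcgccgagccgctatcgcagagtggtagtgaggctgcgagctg

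All 7 members had an entry in the RefSeq promoter table, with 23 promoters among them. The full element was present in 588 of 32851 promoters of the same length in the table (1.79%), and among the members only in Prkar1a, where it begins 49 bases before the start shown. The 5-letter core was present in 6837 promoters (20.8%), and in at least 1 promoter of 6228 of 27025 genes (23.0%). It occurred in 10 of the 23 member promoters, which belong to 6 of the 7 members, all except Prkar2b. These counts are not directly comparable with the shares over the table. The members have more promoters per gene, and overlapping windows of Prkar1a and of Gnas hold the same sites. In the Prkacb promoter shown it lies 102 bases before the start. The Prkacb, Prkar2b and Prkar1b promoters shown had 72.0%, 75.0% and 75.0% G and C, against a median of 52.7% over the table. These matches describe letters in the windows and were not tested for any use by the cells.

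Library totals ran from 358355 to 4744036 counts. The median count was 170 for Prkaca, 196 for Prkacb, 511 for Prkar1a, 389 for Prkar1b, 65 for Prkar2a, 16 for Prkar2b and 661 for Gnas, so that Prkar2b is the least precise of the members. Levels of a gene are given in CPM, counts scaled to a common library size, after 1 scaling by the trimmed mean of M values over all 81 libraries. Markers of the named populations were looked at in every library. Prox1, the transcription factor of DGCs, was at 695 to 958 CPM in DG libraries and at 1.14 to 12.8 CPM in CA1 libraries. In 6 of 27 CA1 libraries, however, the summed level of 7 CA2 markers was above that of 6 CA1 markers. These were 17-21 (2N ChN), 16-357 (Ts ChN), 15-336 and 16-90 (2N ChP), and 15-199 and 16-272 (Ts ChP). The CA3 library 15-140 (Ts ChP) had DG markers at 144 CPM against 5.52 to 18.2 CPM in the other CA3 libraries, with Prox1 at 54.9 CPM. The CA1 library 17-154, labelled 2N, had a summed level of triplicated genes of 10332 CPM, within the range of the Ts libraries. These 8 libraries are meant below by libraries that stand apart. The CA3 library of mouse 15-145 is labelled Ts, but the CA1 and DG libraries of that animal carry a 2N label. For that reason it entered the tests among 2N libraries, and its triplicated genes summed to 8167 CPM, against 7288 to 7697 CPM in the other 2N libraries and 10990 to 12050 CPM in the Ts libraries of CA3 ChN.

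The first comparison asks how the transcript levels of the members differ between the neuronal populations. Protein of the members was not measured here. Every member except Prkar1a differed between CA3 PNs and DGCs of 2N ChN mice. Prkar1b and Gnas were highest in CA3 PNs and lowest in DGCs, while Prkacb and Prkar2b were highest in DGCs by a wide margin. Prkaca, the widely expressed catalytic subunit, was higher in CA3 PNs than in either other population, by less than 1.5-fold.

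Prkacb, the second catalytic subunit, stood at 133 CPM in CA1 libraries (range 60.7 to 201, n = 27), 144 CPM in CA3 libraries (82.4 to 200, n = 26) and 380 CPM in DG libraries (287 to 432, n = 28) as the median. The lowest DG library was above the highest library of either PN population. The share of all genes whose libraries separate populations without overlap was not computed, here or for the members below. In 2N ChN mice the log2 fold change (LFC) of CA3 PNs over DGCs was −1.76 ± 0.142 (SE) and that of CA1 PNs over DGCs was −1.67 ± 0.144 (edgeR quasi-likelihood test, adjusted p = 1.45e-11 and 9.47e-11). CA1 and CA3 PNs differed by 0.09 ± 0.145, which did not pass (adjusted p = 0.721). Without the CA1 libraries that stand apart this LFC was 0.29 (adjusted p = 0.036).

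Prkaca was highest in CA3 libraries. Its medians were 139 CPM in CA1 libraries (100 to 219), 189 CPM in CA3 libraries (153 to 226) and 142 CPM in DG libraries (110 to 176), and the 3 ranges overlapped. CA3 PNs exceeded DGCs by an LFC of 0.43 ± 0.134 (adjusted p = 0.00851) and CA1 PNs were below CA3 PNs by −0.40 ± 0.135 (adjusted p = 0.0271) in 2N ChN mice. The latter call was lost in 4 of 6 refits without 1 mouse and with library 15-145 under its own label (−0.38, adjusted p = 0.0554), while without the libraries that stand apart the LFC was −0.68 (adjusted p = 1.08e-06). The difference between CA1 PNs and DGCs, at 0.03 ± 0.138, did not pass (adjusted p = 0.88). With library totals in place of the trimmed mean scaling, which moved the median of all genes between PNs and DGCs by −0.0931 to −0.216 log2, Prkaca no longer passed between CA3 PNs and DGCs (0.24, adjusted p = 0.123).

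Among the regulatory subunits, Prkar1b separated the 3 populations without overlap. Prkar1b, the neuronal type I subunit, had a median of 628 CPM in CA3 libraries (469 to 698), 381 CPM in CA1 libraries (305 to 454) and 193 CPM in DG libraries (116 to 241). The LFC in 2N ChN mice was 1.96 ± 0.0994 for CA3 PNs over DGCs, 1.09 ± 0.099 for CA1 PNs over DGCs and −0.88 ± 0.0954 for CA1 over CA3 PNs (adjusted p = 1.34e-18, 1.99e-11 and 3.28e-09). Prkar1a, the type I subunit found in nearly all cells, varied little, with medians of 466 CPM (388 to 579), 510 CPM (461 to 602) and 418 CPM (302 to 495) in CA1, CA3 and DG libraries. Its LFC of CA3 PNs over DGCs was 0.20 ± 0.0914 in 2N ChN mice (adjusted p = 0.0729). It passed in the other 3 groups of mice at 0.22 to 0.45, but in neither Ts group with library totals (0.05 and 0.00; adjusted p = 0.578 and 0.958).

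Prkar2b, a type II subunit that is prominent in brain, was scarce in PNs and clearly expressed in DGCs. Medians were 7.49 CPM in CA1 libraries (1.92 to 18.4), 9.17 CPM in CA3 libraries (5.11 to 18.0) and 48.0 CPM in DG libraries (36.2 to 77.0), and no DG library overlapped a PN library. In 2N ChN mice the LFC over DGCs was −2.29 ± 0.224 for CA1 PNs and −2.62 ± 0.214 for CA3 PNs (adjusted p = 1.18e-10 and 7.83e-13). Between the 2 PN populations the LFC was 0.34 ± 0.264 (adjusted p = 0.417). Prkar2a, the other type II subunit, was at 57.4 CPM (37.7 to 91.6) in CA1, 69.2 CPM (52.0 to 95.2) in CA3 and 52.9 CPM (38.1 to 70.5) in DG libraries. Its LFC was 0.48 ± 0.136 for CA3 PNs over DGCs (adjusted p = 0.00427) and −0.40 ± 0.137 for CA1 over CA3 PNs (adjusted p = 0.0311), and neither passed with library totals (adjusted p = 0.0847 and 0.0647). The call between CA1 and CA3 PNs was also lost in 5 of 6 refits without 1 mouse and under DESeq2 (−0.37, adjusted p = 0.0557).

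Gnas followed Prkar1b, with medians of 637 CPM in CA1 libraries (468 to 1104), 1069 CPM in CA3 libraries (901 to 1201) and 421 CPM in DG libraries (351 to 491). All CA3 libraries were above all DG libraries. In 2N ChN mice the LFC was 1.35 ± 0.141 for CA3 PNs over DGCs, 0.74 ± 0.14 for CA1 PNs over DGCs and −0.61 ± 0.138 for CA1 over CA3 PNs (adjusted p = 2.38e-08, 0.000186 and 0.00175). Without the libraries that stand apart, the LFC of CA1 over CA3 PNs was −0.87 (adjusted p = 2.95e-14).

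**Figure D1:**
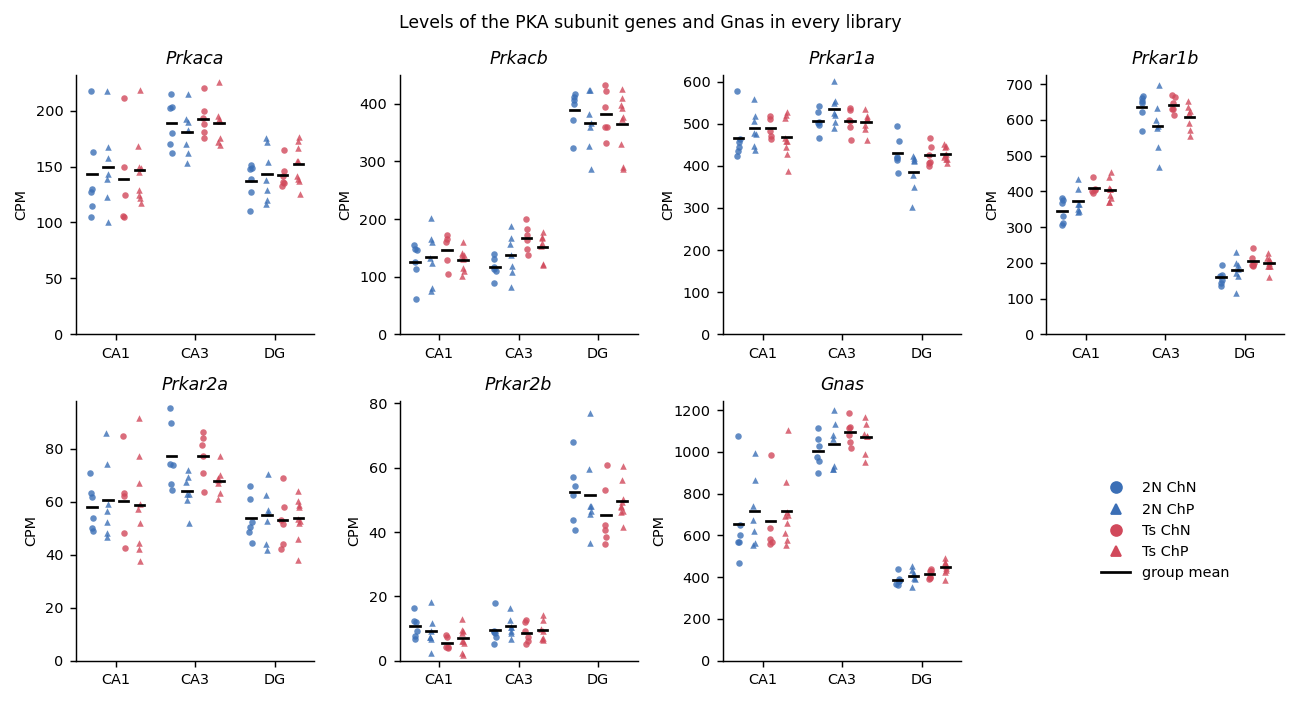
Level of each member in CPM (y axis, linear from 0) in the CA1, CA3 and DG libraries (x axis), 1 point per library, with colour for genotype, shape for maternal diet and a black line at each group mean. Prkacb and Prkar2b sit highest in DG libraries with no overlap, and Prkar1b falls from CA3 to CA1 to DG without overlap. Gnas is highest in CA3 libraries except where single CA1 libraries reach up to 1104 CPM. The share of all genes without overlap was not computed.

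The 6 CA1 libraries rich in CA2 markers lay at 1 end of the CA1 range for several members. Gnas was at 857 to 1104 CPM in them and at 468 to 740 CPM in the other 21 CA1 libraries, without overlap. Prkar2a was likewise higher, at 71.0 to 91.6 CPM against 37.7 to 67.0 CPM, and Prkar1a at 519 to 579 CPM against 388 to 513 CPM. Prkacb was lower, at 60.7 to 110 CPM against 113 to 201 CPM. Prkaca was at 149 to 219 CPM against 100 to 169 CPM, with overlap, whereas Prkar1b, at 332 to 454 CPM against 305 to 439 CPM, spanned nearly the same range. These libraries were singled out by their markers, not by the members, and the values are given as a description. The share of all genes that separate these libraries likewise was not computed. The separation is therefore not shown to be particular to the members.

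The tests were run in 4 separate sets of mice. Between CA1 and CA3 PNs, 4, 2, 3 and 3 of the 7 members passed an adjusted p of 0.05 in 2N ChN, 2N ChP, Ts ChN and Ts ChP mice, where 23.3%, 22.9%, 25.3% and 24.5% of all genes tested passed, and each member that passed was lower in CA1 PNs. In CA1 PNs against DGCs, 4, 5, 4 and 4 members passed, against 34.3%, 31.8%, 33.7% and 39.3% of all genes. For CA3 PNs against DGCs the counts were 6, 6, 7 and 7, against 43.7%, 40.4%, 44.5% and 44.2% of all genes. Prkar1b and Gnas passed in all 12 of these comparisons, and Prkacb and Prkar2b in the 8 with DGCs and in none between CA1 and CA3 PNs. Prkaca did not pass between CA1 and CA3 PNs in 2N ChP mice (−0.28, adjusted p = 0.101). Prkar2a passed between CA1 and CA3 PNs only in 2N ChN mice, and between CA3 PNs and DGCs in all sets but 2N ChP (0.20, adjusted p = 0.274). With the mouse as a block, 3 further results passed: Prkaca between CA1 and CA3 PNs in 2N ChP mice (−0.31, adjusted p = 0.0264), Prkar2a between CA1 and CA3 PNs in Ts ChN mice (−0.38, adjusted p = 0.0216) and Prkar1a between CA1 PNs and DGCs in Ts ChN mice (0.19, adjusted p = 0.0393).

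Levels of different genes were compared per length, in TPM, a unit that divides reads by transcript length and library size. Gnas was the highest of the 7 in each of the 81 libraries, with a mean of 389 ± 141 TPM in CA1 (SD, n = 27), 767 ± 194 TPM in CA3 (n = 26) and 308 ± 78.3 TPM in DG libraries (n = 28). Prkar2b was the lowest in all CA1 and CA3 libraries and in 7 of 28 DG libraries, and Prkar2a was the lowest in the other 21. Prkacb made up 41.7 ± 10.4% of the summed catalytic TPM in CA1 libraries, 35.0 ± 6.79% in CA3 libraries and 64.4 ± 5.34% in DG libraries (SD over libraries), so that Prkaca led in PNs and Prkacb in DGCs on average.

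Of the summed regulatory TPM, Prkar1a made up 46.6%, 38.4% and 58.4% on average in CA1, CA3 and DG libraries, and Prkar1b 47.0%, 55.8% and 29.4%. The type I genes thus held most of the regulatory transcripts in every population. Prkar2a stayed at 5.57%, 5.02% and 5.81%, whereas Prkar2b made up 0.843%, 0.799% and 6.36%. The summed regulatory TPM was 3.49 times the catalytic in CA1, 4.11 times in CA3 and 1.63 times in DG libraries on average. The lengths behind these shares were estimated per library, and ran from 921 to 4060 bases for Prkacb. With 1 fixed length per gene the ratios were 3.71, 4.09 and 1.61.

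**Figure D2:**
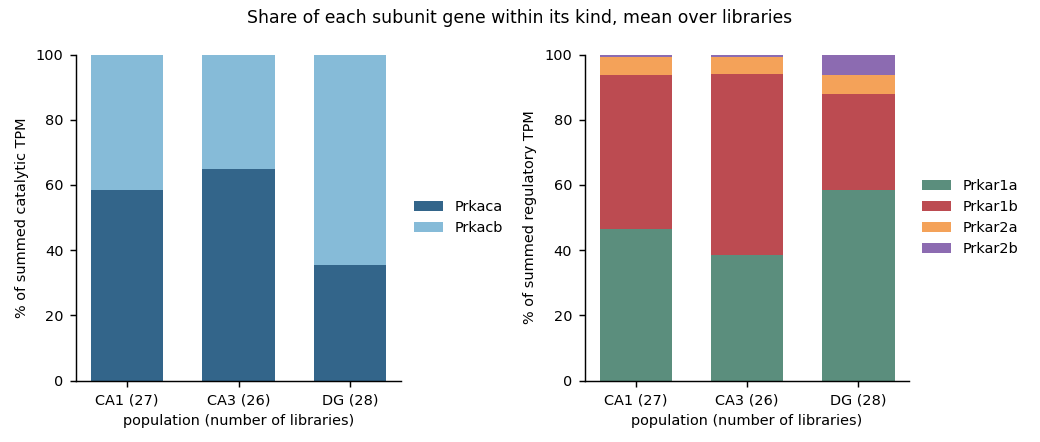
Share of each gene (y axis, % of summed TPM, mean over libraries) among the catalytic subunit genes (left) and the regulatory subunit genes (right) in CA1 (27), CA3 (26) and DG (28) libraries. Prkacb takes 64.4% of the catalytic TPM in DG libraries and 35.0% in CA3 libraries, and Prkar1b takes 29.4% and 55.8% of the regulatory TPM.

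The second comparison asks whether the genes differ between Ts and 2N mice of the normal diet. In CA3 PNs, Prkacb was higher in Ts mice. In DGCs, Prkar1b was higher in Ts mice. These were the only members to pass an adjusted p of 0.05 over all genes in any population on this diet. At the unadjusted p under 0.05 used in the study, 2 of 7 members were called among CA1 PNs, 2 among CA3 PNs and 1 among DGCs, where 3.77%, 9.20% and 8.50% of all genes were called. At the adjusted threshold the counts were 0, 1 and 1, against 0.00814%, 0.662% and 0.588% of all genes. The study had already named Prkar1b and Prkar2b in CA1 PNs, Prkacb in CA3 PNs and Gnas in both as changed. It used the same ChN mice, so these counts against all genes are no independent support.

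Prkacb in CA3 PNs ranged from 89.5 to 139 CPM in 6 2N ChN libraries (median 116) and from 138 to 200 CPM in 6 Ts ChN libraries (median 168). In 5 of 6 Ts libraries it was above every 2N library. The share of all genes with so many Ts libraries above all 2N libraries was not computed, here or for the members below. The single 2N library that reached the Ts range, at 139 CPM, was that of mouse 15-145, whose label names the other genotype, and the next highest was at 131 CPM. The LFC was 0.52 ± 0.0949, or 1.43-fold (edgeR quasi-likelihood test, adjusted p = 0.000751). It stayed between 0.46 and 0.58 when each library was left out in turn, and with library 15-145 under its own label it was 0.52 (adjusted p = 0.0127). In a fit of both diets together the adjusted p was 0.199.

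Markers of inhibitory neurons also differed between these 2N and Ts libraries. Their summed level over 8 markers was 209 to 484 CPM in the 2N libraries (median 365) and 192 to 247 CPM in the Ts libraries (median 220), and 6 of the 8 were lower in Ts mice at an unadjusted p under 0.05. Of 7 astrocyte markers, 3 were lower. None of the 8 inhibitory markers was at 0 in all libraries of a group. With the mean log2 CPM of the inhibitory markers, called the inhibitory level below, as a covariate, the Prkacb LFC was 0.64 (adjusted p = 0.133). It was still called at an unadjusted p under 0.05. The summed markers of DGCs, which hold more Prkacb, were at 6.60 to 13.4 CPM in 2N and 7.32 to 16.5 CPM in Ts libraries. In DG libraries they were at 1980 to 2450 CPM. The part of any other cells in the Prkacb difference was not tested.

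Prkaca, the other catalytic gene, differed by 0.02 ± 0.08 in the same libraries (adjusted p = 0.979). Gnas in CA3 PNs was 901 to 1113 CPM in 2N (median 1000) and 1018 to 1188 CPM in Ts libraries (median 1096), with 3 Ts libraries above all 2N libraries. Its LFC of 0.12 ± 0.0561 was called at an unadjusted p under 0.05 and had an adjusted p = 0.488. The unadjusted call was lost in 5 of 12 refits without 1 library and under 5 of 9 alternatives, among them the inhibitory covariate (0.05, adjusted p = 1) and library 15-145 under its own label (0.07, adjusted p = 0.906). The study reports Gnas as upregulated in CA1 PNs as well. In CA1 PNs on ChN it was at 468 to 1078 CPM in 2N (median 585) and 561 to 985 CPM in Ts libraries (median 584). Its LFC there was 0.0009 ± 0.219, and it was not called. It ran from −0.174 to 0.206 when each library was left out in turn. The library covariates of the study were not used here. All 4 regulatory genes were between −0.00 and 0.06 in CA3 PNs, and none passed.

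In DGCs, Prkar1b ranged from 135 to 194 CPM in 6 2N ChN libraries (median 159) and from 191 to 241 CPM in 6 Ts ChN libraries (median 197). Of the Ts libraries, 4 were above every 2N library. The LFC was 0.37 ± 0.0886, or 1.29-fold (adjusted p = 0.0284), and it ran from 0.31 to 0.42 when each library was left out. Under limma-voom the adjusted p was 0.0606. Here the inhibitory markers summed to 263 to 337 CPM in 2N and 266 to 381 CPM in Ts libraries, with 0 of 6 tested called, and the markers of CA3 PNs, which hold more Prkar1b, to 114 to 142 and 120 to 159 CPM, with 1 of 4 tested higher in Ts mice. With the inhibitory level as a covariate the LFC was 0.36 (adjusted p = 0.0494). The part of any other cells in the Prkar1b difference was not tested.

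Prkar1b in CA1 PNs was at 305 to 381 CPM in 6 2N ChN libraries (median 350). The 5 Ts ChN libraries were at 394, 403, 403, 406 and 441 CPM, and so above all of them. The highest 2N library, at 381 CPM, was 17-154, whose triplicated genes were within the range of the Ts libraries. The share of all genes that separate these 2 groups was not computed. The LFC was 0.22 ± 0.104 (adjusted p = 1). The call at an unadjusted p under 0.05 was lost in 8 of 11 refits without 1 library. It remained without the libraries that stand apart (0.23, adjusted p = 0.652).

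Prkar2b in CA1 PNs was at 6.87 to 16.3 CPM in the 2N ChN libraries (median 10.7), from counts of 6 to 17, and at 3.93 to 7.91 CPM in the Ts ChN libraries (median 4.40), from counts of 5 to 9. It fell by 1.01 ± 0.339 on the log2 scale (adjusted p = 1), and the ranges overlapped. The unadjusted call held in all 11 refits without 1 library, with LFCs from −1.17 to −0.85.

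**Figure D3:**
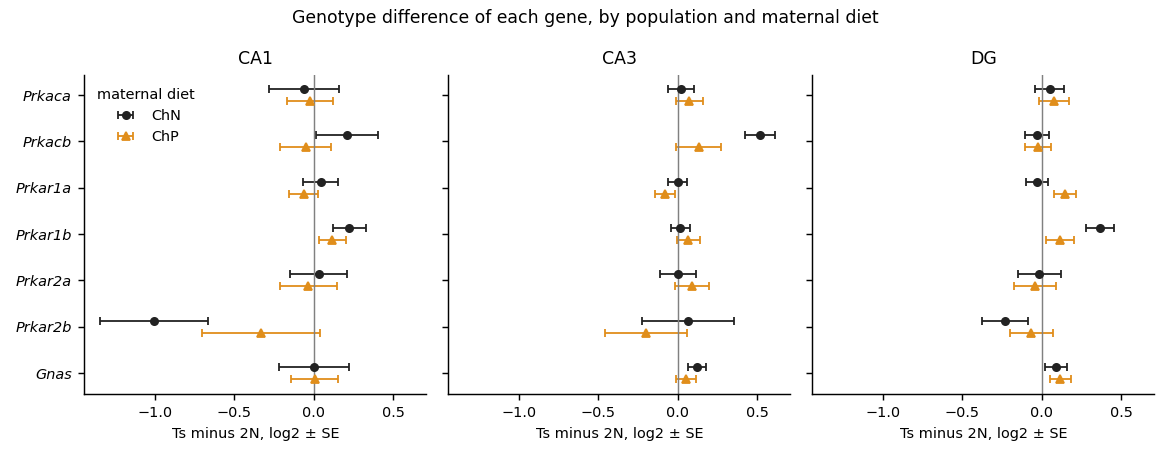
LFC of Ts over 2N mice with its SE (x axis) for each member (y axis) in CA1 PNs, CA3 PNs and DGCs, with circles for ChN and triangles for ChP mice. Prkacb in CA3 PNs (0.52) and Prkar1b in DGCs (0.37) stand to the right of 0 on ChN, Prkar2b in CA1 PNs (−1.01) to the left, and the ChP values of the same genes are nearer to 0.

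In the mice of the supplemented diet, none of the members was called in either PN population and 1 was called in DGCs at an unadjusted p under 0.05, against 3.60%, 4.99% and 7.60% of all genes. None passed the adjusted threshold, which 0.0490%, 0.249% and 0.445% of all genes passed. Prkacb in CA3 PNs was at 82.4 to 189 CPM in 7 2N libraries (median 138) and 121 to 177 CPM in 7 Ts libraries (median 158), and the Ts range lay inside the 2N range. Its LFC was 0.13 ± 0.141 (adjusted p = 0.999). Prkar1b in DGCs was at 116 to 232 CPM in 7 2N libraries (median 182) and 161 to 229 CPM in 9 Ts libraries (median 200), with an LFC of 0.12 ± 0.0883 (adjusted p = 0.845). With the inhibitory level as a covariate its LFC was −0.21 (adjusted p = 0.999), so that the direction turned. The member called was Prkar1a in DGCs, at 302 to 424 CPM in 2N (median 412) and 407 to 453 CPM in Ts libraries (median 425). Its LFC of 0.15 ± 0.068 (adjusted p = 0.59) was no longer called in 4 of 16 refits without 1 library, or with the inhibitory level as a covariate (0.13, adjusted p = 0.999). In these DG libraries 4 of 6 inhibitory markers tested were higher in Ts mice, with summed levels of 296 to 432 CPM against 226 to 328 CPM.

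**Figure D4:**
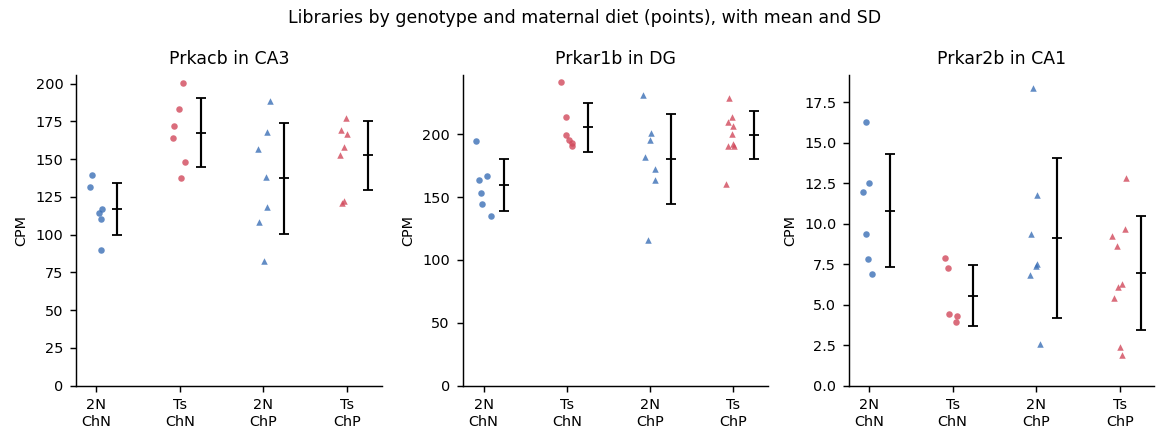
CPM (y axis, linear from 0) of Prkacb in CA3, Prkar1b in DG and Prkar2b in CA1 libraries for each genotype and maternal diet (x axis), with 1 point per library and the mean and SD beside it. On ChN, Ts libraries of Prkacb (138 to 200 CPM) lie above all 2N libraries but 1, and on ChP the groups overlap.

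The difference between the diets was tested directly. For the genotype by diet term, 0 of 7 members were called in CA1 PNs, CA3 PNs or DGCs at an unadjusted p under 0.05, against 3.22%, 4.87% and 3.97% of all genes. Nearest to the threshold were Prkar1b in DGCs (−0.25 ± 0.126) and Prkacb in CA3 PNs (−0.38 ± 0.195), with an adjusted p = 1 and an adjusted p = 0.996. Prkacb in CA3 PNs was called under 5 alternatives (DESeq2, limma-voom, library totals, no filter on low counts and filterByExpr). By the chosen test the genotype difference of Prkacb on the supplemented diet was thus not shown to differ from that on the normal diet.

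For maternal diet alone, few members were called. Within 2N mice, 0, 1 and 2 members were called for CA1 PNs, CA3 PNs and DGCs, against 3.27%, 4.90% and 5.82% of all genes, and within Ts mice none was called, against 3.05%, 4.19% and 3.81%. The called members were Prkar2a in CA3 PNs, at 64.5 to 95.2 CPM on ChN (median 74.1) and 52.0 to 72.0 CPM on ChP (median 63.0), which fell by 0.25 ± 0.11 on the log2 scale, and 2 genes in DGCs. Prkar1a in DGCs was at 384 to 495 CPM on ChN (median 419) and 302 to 424 CPM on ChP (median 412) and fell by 0.16 ± 0.0717. Prkar1b in DGCs was at 135 to 194 CPM on ChN and 116 to 232 CPM on ChP and rose by 0.20 ± 0.0937. These calls rest on an unadjusted p under 0.05. No adjusted p was below 0.831, and the calls were lost in 3 of 26 refits without 1 library for Prkar2a, 4 of 28 for Prkar1a and 6 of 28 for Prkar1b. The Prkar1a call was also lost with library totals (−0.14, adjusted p = 0.875), and the Prkar1b call under limma-voom (0.21, adjusted p = 0.825).

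A genotype difference called in 1 population need not differ from that in another, so this was tested as well. At an unadjusted p under 0.05, on the normal diet the genotype LFC of Prkacb was larger in CA3 PNs than in DGCs by 0.53 ± 0.188 (adjusted p = 0.81), and that of Prkar1b was smaller in CA3 PNs than in DGCs by −0.36 ± 0.118 (adjusted p = 0.711). For Prkar2b the genotype LFC of CA1 PNs was below that of CA3 PNs (−1.09 ± 0.405) and below that of DGCs (−0.79 ± 0.363). The latter was not called without the libraries that stand apart (−0.77, adjusted p = 0.82), and there the genotype LFC of Prkacb was lower in CA1 than in CA3 PNs (−0.39, adjusted p = 0.9), which it was not with all libraries (−0.29). On the supplemented diet only Prkar1a was called, between CA3 PNs and DGCs (−0.22 ± 0.107, adjusted p = 1), and with the mouse as a block it was not (−0.21, adjusted p = 1).

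In all, 1, 1 and 2 members were called on ChN for CA1 against CA3 PNs, CA1 PNs against DGCs, and CA3 PNs against DGCs, where 4.22%, 5.51% and 5.18% of all genes were called. On ChP the counts were 0, 0 and 1, against 4.27%, 4.95% and 4.42%. None passed after adjustment, with adjusted p from 0.711 to 1.

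**Figure D5:**
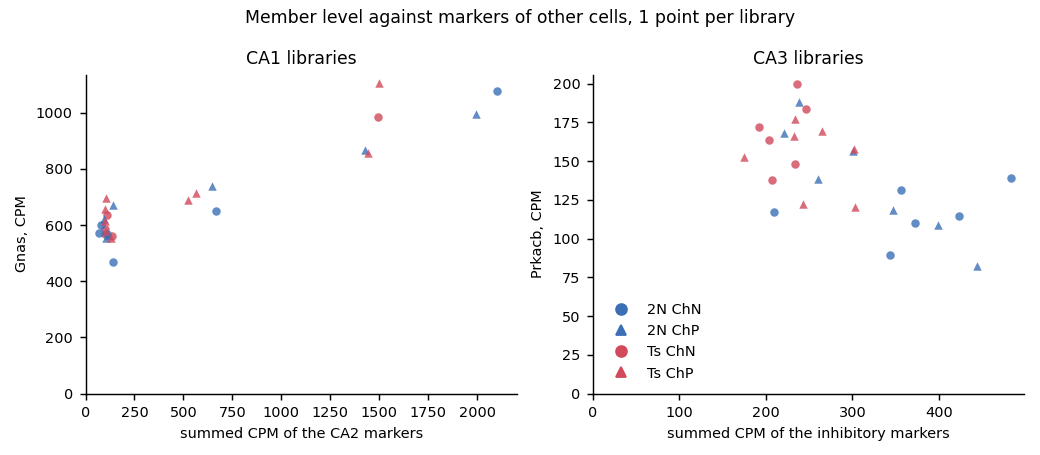
Left, Gnas in CPM (y axis) against the summed CPM of the CA2 markers (x axis) in 27 CA1 libraries, and right, Prkacb in CPM against the summed CPM of the inhibitory markers in 26 CA3 libraries, with 1 point per library, colour for genotype and shape for diet. The CA1 libraries with Gnas at 857 to 1104 CPM are those high in CA2 markers, and the Ts ChN libraries on the right lie at 192 to 247 CPM of inhibitory markers and 138 to 200 CPM of Prkacb.

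The other genes of the cyclic AMP pathway were followed in 10 lists of 153 genes, from receptors to substrates. Between populations of 2N ChN mice, 57 of 125 tested passed an adjusted p of 0.05 between CA1 and CA3 PNs (45.6%), 72 for CA1 PNs against DGCs (57.6%) and 82 for CA3 PNs against DGCs (65.6%), where 23.3%, 34.3% and 43.7% of all genes passed. The lists were not matched to all genes in level, either here or by genotype below. Adcy1, the calcium-stimulated adenylyl cyclase, was at 2727 ± 144 CPM in DG and 138 ± 30.7 CPM in CA3 libraries (SD, n = 6 each), with an LFC of −4.35 ± 0.309 for CA3 PNs over DGCs. Both Pkia and Pkig, which encode inhibitors of the free catalytic subunit, were higher in DGCs, Pkia at 217 ± 22.5 CPM against 50.4 ± 14.1 CPM in CA1 libraries (LFC of CA1 PNs over DGCs −2.13 ± 0.138) and Pkig at 82.0 ± 11.2 CPM against 10.9 ± 2.61 CPM in CA3 libraries (LFC of CA3 PNs over DGCs −2.93 ± 0.172). Akap7, an anchoring protein, was at 51.4 ± 6.20 CPM in DG and 8.24 ± 1.32 CPM in CA3 libraries (LFC −2.65 ± 0.191).

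Other genes were higher in at least 1 PN population than in DGCs. Pde1a, a phosphodiesterase that degrades cyclic nucleotides, was at 232 ± 33.8 CPM in CA1 and 143 ± 17.4 CPM in CA3 libraries, and at 1.06 ± 1.04 CPM in DG libraries. Gnao1, the alpha subunit of the most abundant brain G protein, was at 851 ± 70.1 CPM in CA3 and 217 ± 7.37 CPM in DG libraries, with an LFC of 1.94 ± 0.0992. Rph3a, a synaptic vesicle protein and kinase substrate, was at 933 ± 104 CPM in CA3, 387 ± 38.2 CPM in DG and 51.6 ± 47.2 CPM in CA1 libraries.

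By genotype on the normal diet, 9 of 121 pathway genes were called at an unadjusted p under 0.05 for CA1 PNs (7.44%), 22 of 122 for CA3 PNs (18%) and 18 of 122 for DGCs (14.8%), and on the supplemented diet 7 of 125 (5.6%), 12 of 126 (9.52%) and 5 of 124 (4.03%). Of all genes, 3.77%, 9.20% and 8.50% were called on the normal diet and 3.60%, 4.99% and 7.60% on the supplemented diet. In CA3 PNs on ChN, 11 were higher and 11 lower in Ts mice, and in DGCs 11 were higher and 7 lower. Those past an adjusted p of 0.05 in CA3 PNs on ChN were Pde10a (0.39 ± 0.0904, adjusted p = 0.0202), Pde1a (0.37 ± 0.0885, adjusted p = 0.0224) and Rph3a (−0.50 ± 0.0785, adjusted p = 0.000488). Pde10a, a phosphodiesterase of cyclic AMP and cyclic GMP, lies on the triplicated part of chromosome 17 (chr17:8744204-9205482, GRCm39), and was also higher in Ts mice on ChP in CA3 PNs (0.69 ± 0.088, adjusted p = 1.15e-06) and in DGCs (0.37 ± 0.089, adjusted p = 0.0194).

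In CA3 PNs on ChP the anchoring gene Pakap, whose symbol covers 3 identifiers on chromosome 4, passed for only 1 of them. That identifier was lower in Ts mice (−0.76 ± 0.149, adjusted p = 0.00449). In DGCs on ChN only Arpp21, a phosphoprotein regulated by cyclic AMP, passed (0.32 ± 0.0809, adjusted p = 0.0378). None passed in CA1 PNs, where the smallest p on ChN belonged to Crtc2, a coactivator of CREB (0.85 ± 0.265, adjusted p = 1), and on ChP to Pde10a (0.62 ± 0.151, adjusted p = 0.236). None of the 3 inhibitors of the catalytic subunit was called by genotype in CA3 PNs or DGCs on ChN.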

How the data were processed

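RNA-seq libraries of 3 laser-captured neuronal populations were read as gene tables. Per the methods of the authors and the submitters' processing notes, reads passed FastQC 0.11.9 and, where needed, Trimmomatic 0.39, were aligned with STAR to the Gencode GRCm39 genome, and were quantified with RSEM, with Picard 2.26.2 for quality measures. The deposited expected counts, estimated per gene by RSEM, are not normalized. TPM and FPKM values, which the authors' RSEM runs divided by an effective length per library, were used as deposited and only to compare levels between genes. The kit was stranded, and the strand setting of the quantification is not given in the sources used here.

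Expected counts were rounded. Genes above 0.1 CPM in at least 10 libraries (in fits of fewer than 11 libraries, in all but 1) were kept, as in the study, with trimmed mean scaling, and tested two-sided with the edgeR quasi-likelihood test (edgeR 4.0.16, R 4.3.3), with Benjamini-Hochberg adjustment over all genes tested. Calls use the threshold of the study, p under 0.05 without adjustment, for genotype, diet and their interactions, and at an adjusted p under 0.05 for populations. The library covariates of the study are not in the labels and were not used here. Differences are Ts minus 2N, ChP minus ChN, or first minus second population. Errors are SD for levels and SE for LFCs. The SE was taken as the absolute LFC over the square root of the quasi-likelihood F statistic. The steps were tested on simulated data.

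Genotype and diet were tested within a population, populations within 1 genotype and diet, and each mouse gave libraries of several populations. As the labels show the same mouse, the mouse was also fitted as a block. Same-mouse libraries deviated together only weakly, with a median correlation of 0.0884 over 9105 genes (−0.00882 to 0.210 in 78 pairs, 33 above 0.1). Mice are the replicates within a population.

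The members, the pathway lists and the marker lists were chosen with earlier results of these data known. All 7 members are named. Of the pathway genes, those named are the ones past the adjusted threshold by genotype (at most 3 in each direction), or else those with the smallest p, and, per list, the gene with the largest population difference above a mean of 10 CPM, of which a selection is printed. For each member the 3 genes with the most similar pattern are named, except for items that are not reported here. Alternatives were DESeq2 1.42.0, limma-voom (limma 3.58.1), library totals, no filter, filterByExpr with a minimum count of 10, 1 surrogate variable (sva 3.50.0), both diets in 1 fit, the own label of library 15-145, the mouse block and leaving out each library. Fits without the libraries that stand apart, with a marker level (mean log2 CPM of a marker list) as covariate, and shares with a fixed length were chosen after seeing the data. Promoters and their coordinates are RefSeq entries in GRCm38.p6; no gene coordinates were converted between builds.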

Additional observations from a re-analysis of the deposited data

Results flagged for a closer look

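Of 84 sets of libraries of 1 member in 1 group, 6 held a library far from the others of its group by Dixon's test, and chance marks about 1 in 20 such sets. Of these, 4 fell on the CA1 libraries 17-21 and 16-357, which are rich in CA2 markers: Gnas was at 1080 CPM in 17-21 (nearest 2N ChN library 650 CPM) and at 985 CPM in 16-357 (nearest Ts ChN library 637 CPM), Prkar1a at 578 CPM in 17-21 (nearest 464 CPM) and Prkar1b at 441 CPM in 16-357 (nearest 406 CPM). Prkaca was at 219 CPM in the CA1 library 16-272, also rich in CA2 markers (nearest Ts ChP library 169 CPM). Prkar2b was at 18 CPM in the CA3 library 17-56 (nearest 2N ChN library 9.2 CPM). The part of the captured field in these values was not tested.

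The genotype difference itself differed between populations at an unadjusted p under 0.05 in 5 cases, by the edgeR interaction test. On the normal diet these were Prkar2b, lower in CA1 than in CA3 PNs by −1.09 and than in DGCs by −0.792, Prkacb, higher in CA3 PNs than in DGCs by 0.53, and Prkar1b, by −0.362 in CA3 PNs against DGCs. On the supplemented diet it was Prkar1a, by −0.221 in CA3 PNs against DGCs. None passed adjustment over all genes, with adjusted p from 0.711 to 1.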

How the results depend on the processing

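Of 5129 recomputed values of single members, 4947 kept their side of the threshold and, where called, their direction, 91 lost a call, 91 gained one, and none of those called changed sign. Without a filter on low counts, 3 members in place of 5 were called by genotype on the normal diet. With the marker covariate, 0 in place of 1 were called on the supplemented diet. DESeq2 called 5 in place of 3 for diet. For genotype by diet, where none was called, DESeq2 and limma-voom called 2 each, and library totals, no filter and filterByExpr 1 each, in every case Prkacb in CA3 PNs, joined under the first pair by Prkar1a in DGCs. The cause was not tested. Leaving out 1 library at a time, or 1 mouse, gave 4 to 6 calls for genotype on the normal diet, 0 to 2 on the supplemented diet (0 without DG libraries 15-334, 15-336, 14-90 or 15-199), 1 to 5 for diet (1 without DG library 15-147 or 15-334 and 5 without CA3 library 15-334 or 16-90), 0 to 2 for genotype by diet (2 without DG library 17-192), 4 to 6 for genotype by population and 53 to 57 for population. With the mouse as a block, 4 in place of 5 members were called for genotype by population and 58 in place of 55 for population, and the block changed no call other than those given above. Library totals gave 45 in place of 55 for population. Prkar2b could not be tested in CA1 PNs under filterByExpr, and its counts of 2 to 108 limit its precision.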

Other observations

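Over all 81 libraries and 9105 genes with a mean of at least 10 CPM, the genes whose pattern was most like that of a member were ranked by Pearson's r of log2 CPM. The libraries share 3 populations, so r mainly describes the order of the populations, and no p is given. For Prkacb these were Scn3a, a voltage-gated sodium channel subunit (r = 0.944), Pitpnm2 (0.939) and Kbtbd11 (0.937). For Prkar2b they were Dsp, the desmosomal protein desmoplakin and a marker of DGCs (0.928), Pdzd2 (0.925) and Grm2, a presynaptic glutamate receptor (0.923). For Prkar1b they included Kif5a, a kinesin motor (0.965), and Clstn1 (0.962), and for Gnas they were Pkm, a glycolytic enzyme (0.975), Slc17a7, the vesicular glutamate transporter (0.970), and Syngr1, a synaptic vesicle protein (0.969).

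The nearest genes were less close for the members that varied little between populations. For Prkar1a they were Napg (0.817), Napb (0.816) and Map2k4 (0.808), the first pair encoding attachment proteins of vesicle fusion. For Prkaca they were Gabbr2, a GABA-B receptor subunit (0.803), Rundc3a (0.801) and Nrip3 (0.797), and for Prkar2a they were Apbb2 (0.727), Ly6e (0.719) and Slc25a22 (0.715). Among the members themselves, Gnas and Prkar1b had r = 0.920 and Prkacb and Prkar2b 0.853, while Prkacb and Prkar1b had −0.80.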
